A study of Mus musculus with 6 samples.

Results

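MHC class I molecules and the genes that make and control them were examined in CD36+ NK and CD36- NK cells from fibrotic mouse liver. The 9 genes were the rows of the deposited table with the symbols H2-K1, H2-D1, H2-Q4, H2-Q6, H2-Q7, H2-T22, H2-T23, B2m and Nlrc5, of 57180 genes in all, and each symbol was found and passed the filter on low counts. The series compares liver NK cells with and without the lipid receptor CD36 by RNA sequencing, with 3 samples in each group. Both fractions came from wild-type male C57BL/6J mice of 6 to 8 weeks, which had all received CCl4, a liver toxin that induces fibrosis, at 2.5 ml/kg of a 20% solution in olive oil, given 2 times a week over 4 weeks, with the cells collected 48 h later. Cells were gated as CD3- NK1.1+ and divided by CD36. Neither the labels nor the methods say whether the samples of a group came from separate mice or pools, so p-values measure only the spread between these samples, which may be technical.

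The class I molecule is a heavy chain joined to the light chain beta-2-microglobulin, and it carries a short peptide to the cell surface. The classical heavy chains H2-K1 and H2-D1 present peptides to CD8 T cells and are also read by the Ly49 receptors of NK cells, which as a rule hold the NK cell back when self class I is present. Nonclassical heavy chains of the Q and T regions have narrower roles: H2-T23 (Qa-1) shows a peptide cut from the leader of certain other heavy chains to the receptor pair CD94/NKG2A, and Nlrc5 is the transactivator that drives class I genes through factors bound at their promoters. NK cells both read class I on other cells and carry it themselves.

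The heavy chain genes lie together on chromosome 17, where in the table's coordinates H2-K1 starts at 34214991 and H2-T22 ends at 36353639. B2m lies on chromosome 2 from 121978167 to 121983564 and Nlrc5 on chromosome 8 from 95160984 to 95253900. The table names no genome build. Sequences are therefore given with the coordinates of the reference they were read from, and these differ from the table's. The 180 bases before the RefSeq start (GRCm38.p6) are shown for the 2 classical genes, the Q region gene with the largest difference, Qa-1 and the light chain. Nlrc5 and interferon act on class I genes through their promoters, but no action on these windows was measured. Where a gene has several starts, the one furthest downstream was used. The last CCAAT began 6, 53 and 16 bases before the start in H2-K1, H2-D1 and H2-Q7, so the windows do not sit at matching positions. They lie at chr17:34000334-34000513 (minus strand), chr17:35262914-35263093 (plus strand), chr17:35438975-35439154 (plus strand), chr17:36032702-36032881 (minus strand) and chr2:122147507-122147686 (plus strand). Each is written along the gene's own strand. Capitals mark CCAAT (the Y box), TGACG (the core of the X2 box), the interferon-stimulated response element (GAAA, any 2 bases, GAAA) and GGGGATT (a kB core), searched on both strands; no marked match overlaps another.
H2-K1: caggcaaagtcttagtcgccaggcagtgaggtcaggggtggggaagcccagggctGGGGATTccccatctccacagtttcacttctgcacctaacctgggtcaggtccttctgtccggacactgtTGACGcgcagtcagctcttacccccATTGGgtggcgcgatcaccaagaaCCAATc
H2-D1: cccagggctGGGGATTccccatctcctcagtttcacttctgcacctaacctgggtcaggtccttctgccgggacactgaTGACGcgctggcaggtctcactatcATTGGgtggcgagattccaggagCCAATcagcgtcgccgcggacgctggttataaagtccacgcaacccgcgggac
H2-Q7: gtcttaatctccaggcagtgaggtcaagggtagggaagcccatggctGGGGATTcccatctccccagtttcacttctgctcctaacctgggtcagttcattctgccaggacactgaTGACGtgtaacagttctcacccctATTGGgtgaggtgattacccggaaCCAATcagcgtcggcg
H2-T23: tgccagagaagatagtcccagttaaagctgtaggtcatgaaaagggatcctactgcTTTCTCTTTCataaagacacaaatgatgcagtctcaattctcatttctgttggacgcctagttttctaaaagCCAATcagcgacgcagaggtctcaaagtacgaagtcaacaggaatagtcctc
B2m: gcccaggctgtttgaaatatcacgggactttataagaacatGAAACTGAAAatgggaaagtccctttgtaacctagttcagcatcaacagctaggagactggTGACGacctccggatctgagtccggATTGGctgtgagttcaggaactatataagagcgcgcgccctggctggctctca

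CCAAT was found in the windows of 8 of the 8 members with a RefSeq promoter entry, and in 27.5% of 32851 promoter windows of the same length. TGACG was found in 6 of the 8 and in 14.8% of all windows, and GGGGATT in 6 of the 8 and in 2% of all windows. In H2-Q4 TGACG began 73 bases before the start, between its CCAAT matches at 79 and 55. In H2-T22 it began at 22, after the CCAAT matches at 88 and 63. In the other members with TGACG it lay upstream of CCAAT, so the count is of the string and not of X2 boxes in place. The exact string used for the interferon element was found in 2 of the 8, H2-T23 and B2m, and in 2.01% of all windows. Elements that depart from this string were not searched for, so a window without a match is not shown to lack one. The run agtttcacttct in the windows of H2-K1, H2-D1 and H2-Q7, for example, does not match it and is unmarked. A match is a run of letters and not a measured binding site. Nlrc5 had no entry.

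The start of the coding sequence is shown for H2-D1, H2-K1, H2-Q7 and H2-T23, because the peptide that H2-T23 presents is cut from a leader. The stretches lie at chr17:35263114-35263185 (plus strand), chr17:34000194-34000257 (minus strand), chr17:35439221-35439284 (plus strand) and chr17:36032609-36032669 (minus strand) in GRCm38, with the starts of the GENCODE M21 annotation. Capitals mark codons 3 to 11 of H2-D1, which encode the 9 residues known as the Qa-1 determinant modifier.
H2-D1: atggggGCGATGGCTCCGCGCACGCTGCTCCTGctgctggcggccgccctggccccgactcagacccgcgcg
H2-K1: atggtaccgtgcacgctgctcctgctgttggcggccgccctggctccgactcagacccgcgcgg
H2-Q7: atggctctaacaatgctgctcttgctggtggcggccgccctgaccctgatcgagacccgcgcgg
H2-T23: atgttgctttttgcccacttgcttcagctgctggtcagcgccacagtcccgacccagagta
Among the 7 heavy chain members, H2-D1 was the 1 whose first 24 codons encoded these 9 residues. The others differed from it by at least 5 residues in every stretch of 9.

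Similar sequence limits how well reads can be given to 1 of these genes. The coding sequences of H2-Q6 and H2-Q7 were 95.5% identical and those of H2-K1 and H2-D1 91.5%, and the lowest identity between any pair of the 7 heavy chains was 71.8%. Of all stretches of 100 bases in the longest coding transcript, 16.4% of those of H2-Q7 and 10.8% of those of H2-Q6 also occurred in another gene, most often in each other. The shares were 14.2% for H2-T22, 7.28% for H2-T23, 4.64% for H2-D1, 2.66% for H2-Q4 and 0% for H2-K1, B2m and Nlrc5. For stretches of 50 bases the shares were 44.7% in H2-T22, 34.9% in H2-Q7, 32% in H2-Q6, 28.8% in H2-T23, 24.3% in H2-Q4, 14.3% in H2-D1 and 8.79% in H2-K1. The read length and the treatment of reads that map to several places are not given in the sources used here, so the value of each heavy chain is uncertain as that of a single gene, most so for H2-T22, H2-Q7 and H2-Q6. Summed counts of the heavy chains were tested for this reason. The sum does not cover fragments shared with genes outside the 7, and H2-T22 shared most with H2-T10 (37.9% of stretches of 50 bases), H2-D1 with H2-Q1 (7.4%) and H2-T23 with H2-T-ps (12.9%).

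The libraries held 10292480 to 13787189 counts, with a biological coefficient of variation of 20.3%. Cd36, the sorted marker, rose in CD36+ NK by 3.27 on the log2 scale (SE 0.426, adjusted p = 0.00615, edgeR), and its lowest CD36+ NK library lay above its highest CD36- NK library. The library names of the samples titled CD36+ have a double hyphen after CD36 and those of the samples titled CD36- a single hyphen, which could be read the other way round, so the titles were followed. Of 8 NK cell markers, 8 fell in CD36+ NK, and their summed level was 777 to 923 CPM (counts relative to the library total after TMM scaling) against 4219 to 5349 CPM in CD36- NK. Klrb1c, which encodes the NK1.1 of the gate, was at 77.9 to 106 CPM against 448 to 524 CPM. Of the 10 macrophage and Kupffer cell markers, 8 were tested and 3 rose. All 8 were higher at an unadjusted p below 0.05 with no overlap between the groups, and the summed level of the list was 2251 to 5584 CPM against 364 to 1366 CPM. Over all tested genes, 2.98% rose and 2.98% fell by both thresholds, and 5.07% were higher at an adjusted p below 0.05. At an unadjusted p below 0.05 14.2% were higher, and 17% were higher with no overlap. The Kupffer cell gene Clec4f had 17, 624 and 0 counts in CD36+ NK and 0 counts in each CD36- NK library. B cell markers summed to 10865 to 12670 CPM in CD36+ NK and 6605 to 8743 CPM in CD36- NK, and 0 of 7 passed both thresholds. At an unadjusted p below 0.05 it was 7 of 7, and 4 of 7 had an adjusted p below 0.05 by edgeR. Of 7 erythroid markers 5 rose (345 to 779 against 74.7 to 163 CPM), and of 7 monocyte markers 1 rose and 2 fell (681 to 1286 against 1167 to 1848 CPM). Cd14 was the monocyte marker that rose (log2 fold change 1.70), and Ccr2 and Itgam fell (-1.35 and -1.08). The part of NK cells in the values of Ccr2 and Itgam was not tested. Of 7 dendritic cell markers, Xcr1 and Clec9a rose (log2 fold changes 2.46 and 2.03) and Itgax, which NK cells also express, fell (-1.13), and Itgax made up most of their sum of 291 to 354 against 469 to 653 CPM. T cell markers, of which 2 of 7 rose, summed to 305 CPM in CD36+ NK replicate 1, which stood apart in a fraction gated as CD3-, to 32.2 and 50.7 CPM in CD36+ NK replicates 2 and 3, and to 55.4 to 58.8 CPM in CD36- NK. Sinusoidal endothelial markers summed to 212 to 306 against 154 to 169 CPM, of which 178 to 214 and 149.1 to 153 CPM were Pecam1, a gene of many leukocytes. Stab2, a scavenger receptor of sinusoidal endothelium, made up nearly all the rest, at 32.8, 38.1 and 89.0 CPM in CD36+ NK and 3.46, 17.2 and 2.54 CPM in CD36- NK with no overlap (log2 fold change 2.79, SE 0.746, edgeR adjusted p = 0.0586). Kdr, Lyve1, Clec4g and Oit3 had 58, 14, 25 and 5 counts over the 6 libraries. Hepatocyte markers summed to 1.75 to 10.5 against 0.0884 to 0.846 CPM, and hepatic stellate cell markers to 3.83 to 6.76 against 2.25 to 5.23 CPM with Lrat at 0 counts in every library. Class I is carried by nearly all of these cells, and the part of these markers in the class I values was not tested. In RNA of whole fractions, fewer cells of a type and less RNA per cell cannot be told apart.

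In each of the 9 class I genes, the 95% interval of the difference between CD36+ NK and CD36- NK lay within a fold change of 2. Where a call needs both an adjusted p below 0.05 and more than 2-fold, 0 of 9 members were called by edgeR's quasi-likelihood test, against 5.96% of the 14761 tested genes, 2.98% higher and 2.98% lower. DESeq2 and edgeR's exact test also called 0 of 9. H2-Q7 alone had an adjusted p below 0.05 and was lower in CD36+ NK, where 10.5% of tested genes passed that threshold, 5.07% higher and 5.44% lower. At an unadjusted p below 0.05 there were 4 of 9, all lower, against 12.1% of tested genes that were lower and 26.3% in either direction. The libraries of the groups did not overlap in 5 of 9 members, all lower in CD36+ NK, and in 15.7% of tested genes that were lower and 32.8% in either direction. The median log2 fold change of the 9 members was -0.21, with a range from -0.70 to 0.12, beside a median of 0.01 over all tested genes. It lay within 0.5 of 0 in 7 of the 9, as in 74.7% of tested genes.

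**Figure D1:**
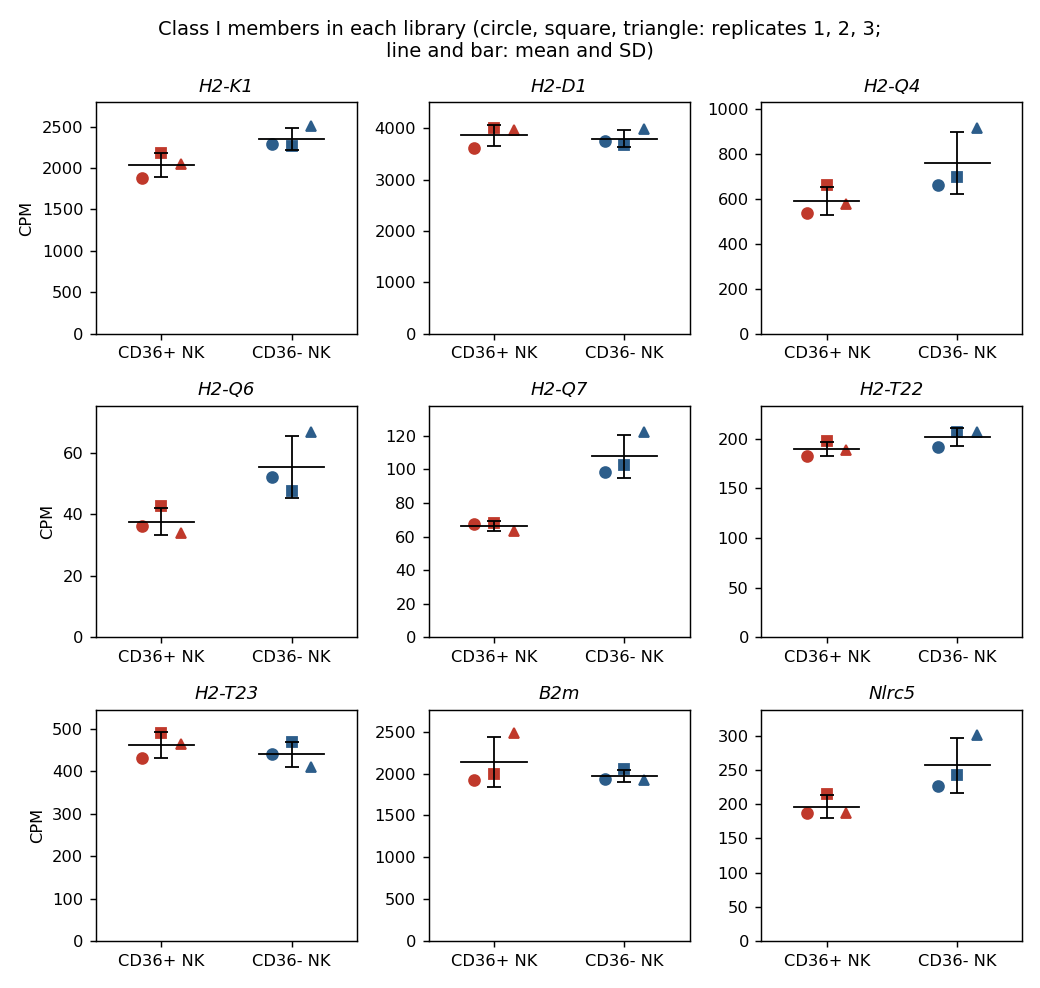
CPM (vertical axis, from 0, scaled by TMM) of each of the 9 members in the 3 CD36+ NK and the 3 CD36- NK libraries, with 1 point a library and the group mean and SD. H2-Q7, the member with the largest relative difference, was at 63.1 to 68.4 CPM against 98.7 to 122 CPM, and the points of H2-D1, H2-T22, H2-T23 and B2m overlap between the groups.

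The classical heavy chains were the most counted of the 7. H2-K1 had 1882, 2178 and 2047 CPM in CD36+ NK replicates 1 to 3 and 2288, 2262 and 2507 CPM in CD36- NK replicates 1 to 3. Every CD36+ NK library thus lay below every CD36- NK library, by a narrow margin. The means were 2036 ± 148 and 2352 ± 134 CPM (SD, n = 3), and the log2 fold change was -0.21 (SE 0.0998, 95% interval -0.44 to 0.03, edgeR adjusted p = 0.241). H2-D1, the heavy chain whose leader feeds Qa-1, had 3619, 3996 and 3971 CPM in CD36+ NK and 3743, 3675 and 3983 CPM in CD36- NK. These values interleaved. Its log2 fold change was 0.02 (SE 0.093, 95% interval -0.20 to 0.24, edgeR adjusted p = 0.912), so a difference of more than 1.18-fold in favour of CD36+ NK or 1.15-fold in favour of CD36- NK lay outside the interval. The sum of both genes gave a log2 fold change of -0.06 (SE 0.0961, 95% interval -0.29 to 0.17).

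The largest differences among the 9 members were those of the Q region genes H2-Q7 and H2-Q6, both lower in CD36+ NK, and H2-Q7 passed the adjusted threshold. H2-Q7 and H2-Q6 encode forms of Qa-2, a class I molecule that is held in the membrane by a lipid anchor or released. H2-Q7 was at 67.6, 68.4 and 63.1 CPM in CD36+ NK and at 98.7, 103 and 122 CPM in CD36- NK. The CD36+ NK libraries were tightly grouped and all lay below the CD36- NK libraries. H2-Q7 fell by 0.70 on the log2 scale (SE 0.107, 95% interval -0.95 to -0.45, edgeR adjusted p = 0.0100), which is 1.62-fold and under the fold threshold. Without CD36+ NK replicate 1, the library with the T cell markers, the log2 fold change of H2-Q7 was -0.73. H2-Q6, its nearest relative, was at 36.3, 42.6 and 33.9 CPM in CD36+ NK and at 52.0, 47.6 and 66.7 CPM in CD36- NK. The groups did not overlap, and CD36- NK replicate 3 was the highest library. The log2 fold change was -0.56 (SE 0.156, 95% interval -0.92 to -0.19), with an adjusted p of 0.0651 by edgeR's quasi-likelihood test and of 0.0223 to 0.201 over the alternatives. H2-Q4, another Q region heavy chain, was the most counted of these genes, at 538, 660.3 and 577 CPM in CD36+ NK and 661, 698 and 917 CPM in CD36- NK. CD36+ NK replicate 2 and CD36- NK replicate 1 nearly met, and CD36- NK replicate 3 stood above the rest. The log2 fold change was -0.36 (SE 0.151, 95% interval -0.71 to -0.0018, edgeR adjusted p = 0.188), and -0.21 without CD36- NK replicate 3. Summed, the Q region genes were at 642, 771 and 674 CPM in CD36+ NK and at 811, 848 and 1106 CPM in CD36- NK. The log2 fold change of this sum was -0.41 (SE 0.145, 95% interval -0.75 to -0.06, edgeR adjusted p = 0.127). The sum is mostly H2-Q4, and it did not pass the threshold that H2-Q7 passed.

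The libraries of the groups overlapped in both T region genes. H2-T23, which encodes Qa-1, was at 431, 491 and 465 CPM in CD36+ NK and 442, 469.6 and 410.2 CPM in CD36- NK, and the groups overlapped. The log2 fold change was 0.07 (SE 0.0979, 95% interval -0.16 to 0.30, edgeR adjusted p = 0.716), and 0.0128 without CD36- NK replicate 3. H2-T22, a heavy chain that binds no peptide and is recognised by some gamma delta T cells, was at 183, 197 and 188 CPM in CD36+ NK and 191, 206 and 207 CPM in CD36- NK. These libraries also overlapped, with a log2 fold change of -0.09 (SE 0.0841, 95% interval -0.29 to 0.11, edgeR adjusted p = 0.570), and of -0.14 without CD36- NK replicate 1. The sum of both was 0.02 on the log2 fold scale (SE 0.0918, 95% interval -0.19 to 0.24).

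B2m encodes the light chain that class I heavy chains pair with to reach the surface. It was at 1929, 2001 and 2483 CPM in CD36+ NK and 1934, 2053 and 1919.6 CPM in CD36- NK. CD36+ NK replicate 3 stood above the other 5 libraries, which lay close together. The log2 fold change was 0.12 (SE 0.121, 95% interval -0.16 to 0.40, edgeR adjusted p = 0.600), and without CD36+ NK replicate 3 it was -0.0011. B2m shared no stretch of 50 bases with another gene, so its value does not carry the limit of the heavy chains.

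Nlrc5, the class I transactivator, was at 186, 215 and 187 CPM in CD36+ NK and at 226, 242 and 301 CPM in CD36- NK. All CD36+ NK libraries were lower, and CD36- NK replicate 3 was again the highest. The means were 196 ± 16.4 and 257 ± 39.7 CPM (SD, n = 3), and the log2 fold change was -0.39 (SE 0.132, 95% interval -0.70 to -0.08, edgeR adjusted p = 0.113). The interval lies below 0, yet the value did not pass the adjustment over all tested genes, and the adjusted p ran from 0.0676 to 0.293 over the alternatives.

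**Figure D2:**
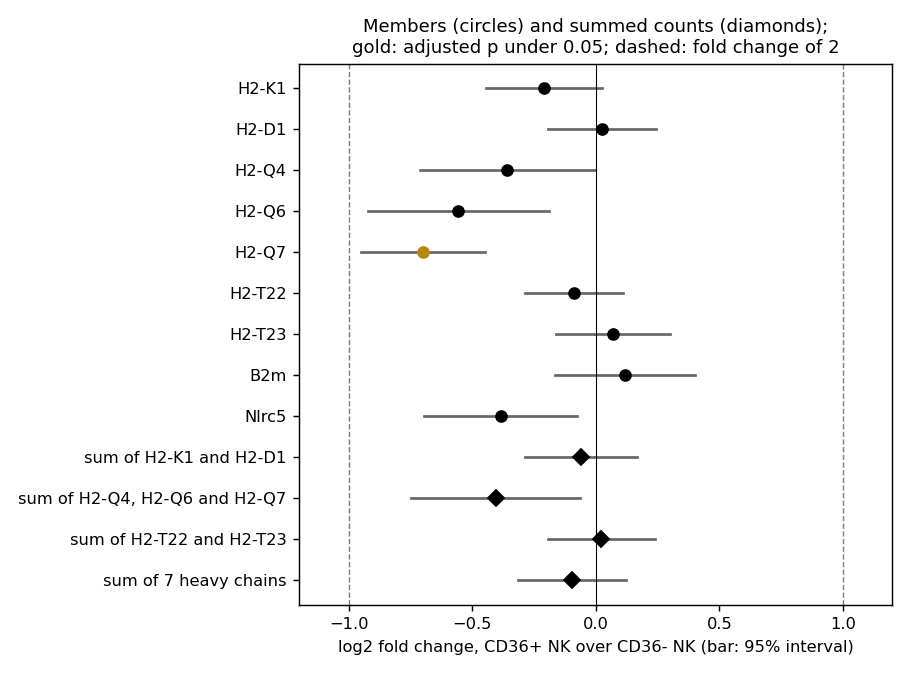
Log2 fold change of CD36+ NK over CD36- NK (horizontal axis) of the 9 members (circles) and of summed heavy chain counts (diamonds), with 95% intervals from edgeR; dashed lines mark a fold change of 2. Every interval lies between the dashed lines, and H2-Q7 at -0.70 is the single gene with an adjusted p below 0.05.

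Counted as 1 feature, the 7 heavy chains together were at 6757, 7633 and 7346 CPM in CD36+ NK and at 7475, 7461 and 8212 CPM in CD36- NK. The lowest library was CD36+ NK replicate 1 and the groups overlapped. The log2 fold change of the sum was -0.10 (SE 0.0927, 95% interval -0.31 to 0.12, edgeR adjusted p = 0.578), a value in which fragments split among these 7 genes cancel. It was -0.0520 without CD36- NK replicate 3 and -0.0554 without CD36+ NK replicate 1. The log2 ratio of summed heavy chain counts to B2m counts was 1.81, 1.93 and 1.56 in CD36+ NK and 1.95, 1.86 and 2.10 in CD36- NK. CD36+ NK replicate 3, with the high B2m value, had the lowest ratio. The groups differed by -0.20 (two-sided exact permutation test, p = 0.2, where 3 against 3 samples cannot give less than 0.1), and by -0.0998 without CD36+ NK replicate 3.

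Within the heavy chain counts, H2-D1 took a larger share in each CD36+ NK library than in any CD36- NK library. H2-D1 made up 53.6%, 52.4% and 54.1% of the heavy chain counts in CD36+ NK and 50.1%, 49.3% and 48.5% in CD36- NK. The means differed by 4.05 percentage points. H2-K1 made up 28.1% ± 0.389 in CD36+ NK and 30.5% ± 0.149 in CD36- NK (SD, n = 3). H2-Q4 made up 8.16% ± 0.430 and 9.79% ± 1.22, H2-Q7 0.919% ± 0.0738 and 1.40% ± 0.0867, and H2-Q6 0.519% ± 0.0507 and 0.715% ± 0.0890 (SD, n = 3). The 4 genes with lower shares in CD36+ NK, H2-K1 and the Q region genes, did not overlap between the groups either. H2-T23 made up 6.38% ± 0.0460 against 5.73% ± 0.667, with no overlap by counts but with overlap by the deposited FPKM. Without CD36- NK replicate 3 the difference in the H2-T23 share went from 0.649 to 0.280 percentage points and that in the H2-Q4 share from -1.63 to -0.939. By FPKM the differences in share were 3.96 points for H2-D1, -1.33 for H2-K1, -2.19 for H2-Q4, -0.334 for H2-Q7 and -0.440 for H2-Q6, against -0.196 for H2-Q6 by counts, and these 5 did not overlap by FPKM. For H2-T23 and H2-T22, which overlapped, they were 0.387 and -0.0437 points. H2-T22 made up 2.62% in both groups and overlapped. For the 6 shares without overlap the two-sided exact permutation p was 0.1, the smallest this design allows, and 0.117 after Benjamini-Hochberg adjustment over the 7 shares. Shares add up to the whole, so a higher share of 1 gene lowers the others, and they are shares of counts, not of molecules.

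**Figure D3:**
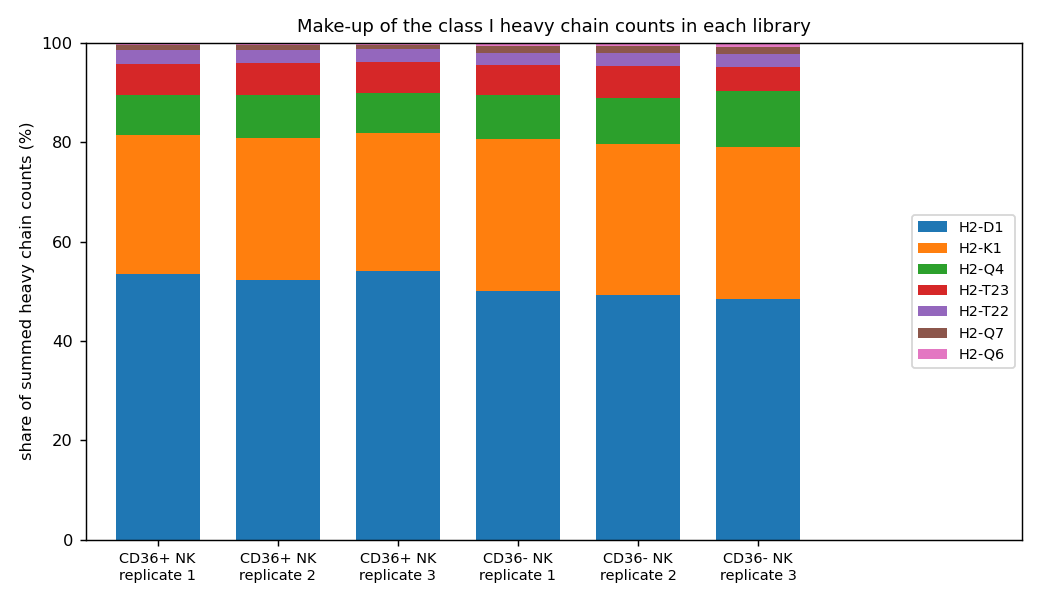
Share of each heavy chain gene in the summed heavy chain counts (vertical axis, percent) of each of the 6 libraries, stacked to the whole. The H2-D1 segment reaches 52.4% to 54.1% in the CD36+ NK bars and 48.5% to 50.1% in the CD36- NK bars.

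Levels can be compared between genes only per length. The order of the 9 members per kilobase of the longest coding transcript was the same in all 6 libraries. B2m was highest (2232 to 2888 CPM per kilobase), followed by H2-D1 (1722 to 1901) and H2-K1 (1162 to 1548). H2-Q4 (300.1 to 511) came next and lay above H2-T23 (279 to 333) within each library, although their ranges over the libraries overlapped, and H2-T22 (104 to 117) came after them. H2-Q7 (41.4 to 80.4), Nlrc5 (24.6 to 39.8) and H2-Q6 (16.3 to 32.0) were lowest, and the ranges of the last 2 overlapped over the libraries but not their order within a library. On the authors' FPKM scale H2-Q7 was lowest in every library (8.51 to 17.2), below Nlrc5 (15.7 to 26.2) and H2-Q6 (14.5 to 29.6), H2-K1 was at 179 to 235 and H2-D1 at 1011 to 1094. The ratio of H2-D1 to H2-K1 was 1.22 to 1.49 per base of transcript and 4.65 to 5.68 by FPKM, so the distance between the 2 classical genes depends on the length used, while the log2 fold change of a gene between the groups is not set by its length.

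**Figure D4:**
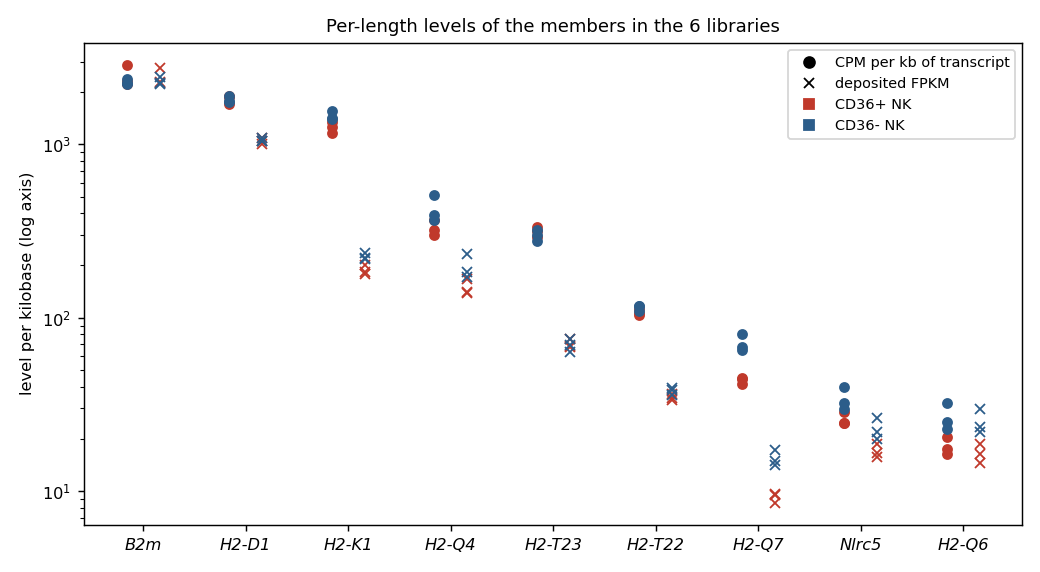
Level of each member in the 6 libraries as CPM per kilobase of transcript (circles) and as the deposited FPKM (crosses) on a log axis, coloured by group. H2-D1 and H2-K1 are adjacent by the first scale and far apart by the second, at 1011 to 1094 and 179 to 235 FPKM.

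Among the genes that supply and load peptides for class I, none was called, where 5.96% of all tested genes were, and every log2 fold change was within 0.5 of 0, as for 74.7% of all tested genes. Of 13 tested genes, among them the transporter genes Tap1 and Tap2, tapasin and the immunoproteasome subunits, 0 passed both thresholds in edgeR, DESeq2 or edgeR's exact test, and 2 had an unadjusted p below 0.05, 1 in each direction, beside 26.3% of all tested genes. The lowest log2 fold change was -0.31, the highest 0.29 and the median 0.00. The most counted were the chaperones Calr, at 746 ± 36.6 CPM in CD36+ NK and 609.8 ± 86.4 CPM in CD36- NK (SD, n = 3), and Pdia3, at 459 ± 37.4 and 411 ± 35.5 CPM (SD, n = 3). Neither passed the test (edgeR adjusted p = 0.183 and 0.419).

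Transcription factors of class I genes and parts of the interferon signal were measured by 21 tested genes, of which 0 rose and 1 fell, with a median log2 fold change of -0.07. Among all tested genes 2.98% were called in each direction. At an unadjusted p below 0.05, 3 were higher and 4 lower, where 14.2% of all tested genes were higher and 12.1% lower. Jak1, a kinase of the interferon receptors, was at 601, 562 and 546 CPM in CD36+ NK and 1118, 1048 and 1332 CPM in CD36- NK, with wide separation. It fell by 1.03 on the log2 scale (SE 0.117, edgeR adjusted p = 0.00392), and without CD36- NK replicate 3 the list had 0 calls, since Jak1 at -0.93 (adjusted p = 0.00896) was then under the fold threshold. Nfkb1, a subunit of the factor that binds kB sites, was at 362 ± 5.63 and 366 ± 14.0 CPM (SD, n = 3), a log2 fold change of -0.01. The 8 NK cell markers also fell, as given above, and their part in the value of Jak1 was not tested.

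Other class I and class I-like heavy chains were higher in CD36+ NK where they were called. Of 16 listed genes 10 were tested, 3 rose and 0 fell, where 2.98% of all tested genes were called in each direction, and the median log2 fold change was 0.98. At an unadjusted p below 0.05 there were 6, all higher, beside 14.2% of all tested genes. The list does not hold H2-Q5, a tested heavy chain gene that was lower (log2 fold change -0.51, SE 0.155, edgeR adjusted p = 0.0821). Hfe, which encodes a regulator of iron uptake, was at 125, 215 and 271 CPM in CD36+ NK and 27.7, 59.3 and 15.04 CPM in CD36- NK (log2 fold change 2.58, SE 0.510, edgeR adjusted p = 0.0237). Fcgrt, the neonatal Fc receptor, was at 74.3, 132 and 149.8 CPM in CD36+ NK and 29.7, 38.5 and 21.2 CPM in CD36- NK (log2 fold change 1.99, SE 0.309, edgeR adjusted p = 0.0107). In both genes CD36+ NK replicate 1 was the lowest of its group, and the groups were apart. H2-M2 had only 41 to 52 counts in CD36+ NK libraries and 13 to 21 in CD36- NK libraries (log2 fold change 1.36, SE 0.287, edgeR adjusted p = 0.0295). H2-M3, a heavy chain that presents formylated peptides, was at 92.7 ± 10.3 CPM in CD36+ NK and 74.0 ± 9.91 CPM in CD36- NK (SD, n = 3, log2 fold change 0.33, edgeR adjusted p = 0.167). The number of these calls was 0 without CD36- NK replicate 1 and 1 when replicate 2 or 3 of CD36+ NK or replicate 3 of CD36- NK was left out. Macrophage markers moved with these genes, at a summed 2251, 3499.9 and 5584 CPM in CD36+ NK replicates 1 to 3 and 553, 1366 and 364 CPM in CD36- NK replicates 1 to 3, and their part in the result was not tested.

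Ligands of NKG2D, stress-induced relatives of class I, had few counts apart from Ulbp1. The table held 5 of 9 listed genes, and 1 of them, Ulbp1, had enough counts to be tested. Ulbp1 was at 28.6 ± 5.50 CPM in CD36+ NK and 32.9 ± 3.35 CPM in CD36- NK (SD, n = 3), and its log2 fold change was -0.20 (95% interval -0.60 to 0.19, edgeR adjusted p = 0.513). Raet1d, the next most counted, had 37 counts over the 6 libraries.

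Most of the receptors that read class I fell in CD36+ NK. Of 12 tested genes 11 fell in CD36+ NK and 0 rose, where 2.98% of all tested genes were called in each direction, with a median log2 fold change of -2.40, and at an unadjusted p below 0.05 Pirb was higher. Klrc1 and Klrd1 encode NKG2A and CD94, the pair that reads Qa-1. Klrc1 was at 42.2, 48.2 and 40.9 CPM in CD36+ NK and 195, 208 and 248 CPM in CD36- NK (log2 fold change -2.31, SE 0.127, edgeR adjusted p = 0.000428). Klrd1 was at 55.5, 60.2 and 47.1 CPM in CD36+ NK and 243, 230.3 and 291 CPM in CD36- NK (log2 fold change -2.23, SE 0.138, edgeR adjusted p = 0.000428). Their ligand gene H2-T23 overlapped between the same libraries. The Ly49 genes Klra4, Klra7, Klra8 and Klra9 fell, with log2 fold changes of -2.62, -2.47, -2.72 and -2.57. Klrk1, which encodes the activating receptor NKG2D, fell by 2.21. Ly49 genes are similar to each other, and fragments could have been split between them. The 8 NK cell markers had log2 fold changes from -2.58 to -2.28, near those of the receptors, and their part in the receptor values was not tested.

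**Figure D5:**
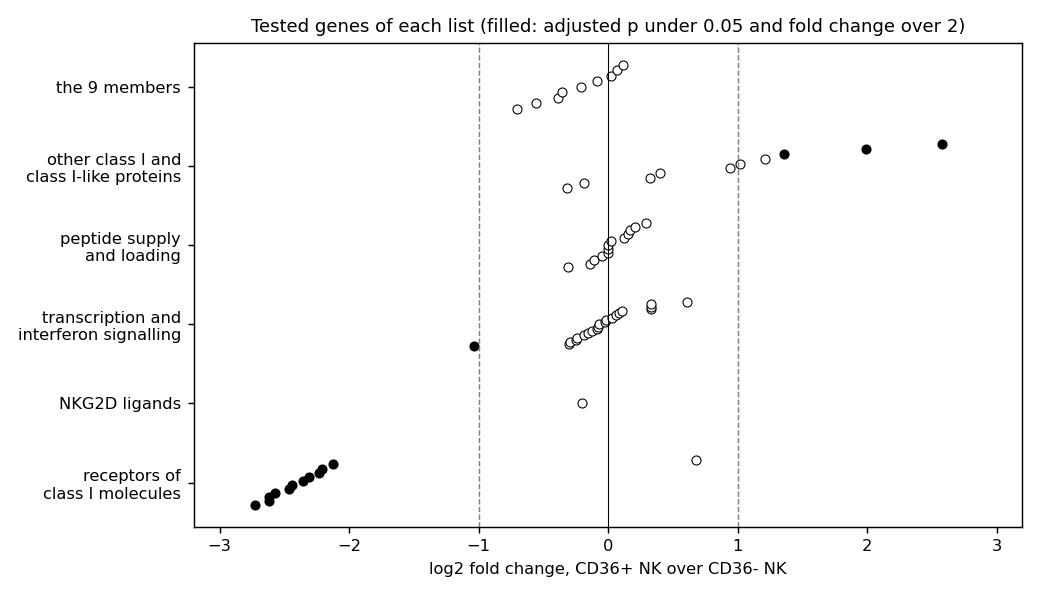
Log2 fold change of CD36+ NK over CD36- NK (horizontal axis) of every tested gene of the members and of 5 lists of the class I pathway, filled where the adjusted p was below 0.05 and the fold change above 2. The members and the peptide loading genes cluster around 0, between -0.70 and 0.29, while 11 of 12 receptor genes lie near -2.40.

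The genes outside these lists whose level followed the summed heavy chains most closely were Cnot1, Tarbp2 and Riok2. Likeness was the root mean square difference of log2 (CPM + 2) over the 6 libraries, after each gene's own mean was taken off, among 9877 genes with a mean of at least 10 CPM, and it was 0.0129, 0.0155 and 0.0183. For Nlrc5 they were Rfx3, Elk4 and Ss18, with 0.0364, 0.0409 and 0.0476. Cnot1, the closest to the heavy chains, was at 227, 252 and 244 CPM in CD36+ NK and 249, 244 and 274 CPM in CD36- NK. These are descriptions over 6 libraries, with no test.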

How the data were processed

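RNA from sorted liver NK cells was sequenced in 3 CD36+ NK and 3 CD36- NK samples, grouped by sample title. The authors filtered reads with Seqtk, mapped them with HISAT2 (version 2.0.4 in the submitters' processing notes) and deposited StringTie counts per gene without normalization, beside FPKM values. The deposited FPKM divide the counts by a gene length and the library total, and were used for level comparisons and as an alternative scale only. The processing notes name the build mRatBN7.2, a rat assembly, whereas the table holds mouse Ensembl genes, and the build of its coordinates is not given in the sources used here. Broken lines of 2 genes were rejoined, and every column of per-sample values was mapped to a sample.

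Counts were tested with edgeR 4.0.16 in R 4.3.3. Genes were kept by filterByExpr with a minimum count of 10 (14761 genes), libraries were scaled by TMM, and the two-sided quasi-likelihood test was run without a block, with Benjamini-Hochberg adjustment over these genes. A call needed an adjusted p below 0.05 and more than 2-fold, as in the study's methods. The SE was taken from the log2 fold change and its F statistic. Replicates differed beyond sampling noise (chi-square per degree of freedom 14.8 to 29.2). Ratios and shares were compared with exact permutation tests (scipy 1.17.1, Python 3.11.15). The script was tested on simulated data. The tests were repeated with DESeq2 1.42.0, with the exact test of edgeR, with other scalings and filters, with blocks and with each library left out. The scale of counts per transcript base was added after the data were seen. Promoter windows came from RefSeq (GRCm38.p6), and transcripts and coding starts from GENCODE M21 (GRCm38).

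The members and lists were chosen with earlier results of these data known. Named genes are the members, Cd36, up to 5 called genes of lowest p in each direction and the 2 most counted genes of each list, and the 3 genes most like the summed heavy chains and Nlrc5. Other genes named (Tap1, Tap2, Pirb, Lrat, Clec4f, Klrb1c, Cd14, Ccr2, Itgam, Xcr1, Clec9a, Itgax, Pecam1, Stab2, Kdr, Lyve1, Clec4g, Oit3, H2-Q5, H2-Q10) were chosen after their values were seen.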

Additional observations from a re-analysis of the deposited data

How the results depend on the processing

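Over the 14 alternatives of each gene, H2-Q7 kept its direction and an adjusted p below 0.05 in all 14 (log2 fold change -0.77 to -0.61, highest adjusted p 0.0479), and was the 1 member called lower when the fold threshold was dropped. H2-Q6 passed the adjusted threshold in 2 of 14, DESeq2 and edgeR's exact test, and the other 7 members in none. H2-D1 ran from -0.0017 to 0.0557 with a library left out, changing sign to -0.00057 without CD36+ NK replicate 2 and to -0.0017 without CD36- NK replicate 2, and B2m ran from -0.0011 to 0.175. The sum of H2-T22 and H2-T23 in place of the 7 heavy chains gave 0.0219. The H2-T22 share differed by -0.0437 percentage points by FPKM, and by -0.0463 to 0.0790 with a library left out. Over all genes, the 440 higher calls became 723 by edgeR's exact test, 749 with no fold threshold and 94 to 708 with a library left out. The 440 lower calls became 803 with no fold threshold and 288 (without CD36- NK replicate 3) to 554 with a library left out. The other class I genes called higher were 0 to 4 with a library left out, and the lower calls among transcription genes 0 to 1. Deviations of same-numbered libraries correlated across genes at 0.367, 0.0871 and -0.0860 in replicates 1 to 3. Correlations of differently numbered libraries are not given here, so these values cannot show whether the numbers mark pairs. The main test did not take them as pairs. The numbers in the library names pair the samples differently from those in the titles, and pairs by library name were not tested. The replicate 1 libraries, which had the first of these values, also share a form of library name that differs from that of the other 4. With the name form as a block H2-Q7 was at -0.70 (adjusted p 0.0154). With the replicate block, H2-Q7 was at -0.69 (adjusted p 0.0391), 221 genes were called higher and 1 other class I gene was. The cause of these movements was not tested. With 3 samples a group, the exact permutation tests of ratios and shares cannot give a p below 0.1.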

Other observations

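H2-Q5, another gene of the Q region that was chosen after its values were seen, had a mean of 137 CPM in CD36+ NK and 196 CPM in CD36- NK, with no overlap between the groups and a log2 fold change of -0.51 (SE 0.155, edgeR adjusted p = 0.0821). H2-Q10, a heavy chain gene known from liver and also chosen after its values were seen, was at 24.6, 5.15 and 2.58 CPM in CD36+ NK and 5.15, 3.45 and 5.27 CPM in CD36- NK, so that CD36+ NK replicate 1 stood far above the other 5 libraries. Its log2 fold change was 1.21 (95% interval -0.59 to 3.01, edgeR adjusted p = 0.378). In the same CD36+ NK libraries T cell markers summed to 305, 32.2 and 50.7 CPM, erythroid markers to 779, 386 and 345 CPM and hepatocyte markers to 3.38, 10.5 and 1.75 CPM, and their part in the value was not tested.

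The gene length behind the deposited FPKM was longer than the gene itself for H2-K1 (10612 bases against a span of 4331 bases), H2-T23 (6451 against 3083) and H2-Q7 (7094 against 4619). The same held for 758 of 7439 genes with over 200 counts in every library (10.19%). FPKM levels of these genes relative to others are therefore lower than counts per transcript base would give, while comparisons of 1 gene between libraries keep the same length.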
